A study of Mus musculus with 49 samples.

Results

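The 27 genes described here make up most of the enzymatic route from acetate to cholesterol in the mouse, together with the proteins that hold the route in check through the transcription factor SREBP2. They were taken by name from the 24495 genes of the deposited table. The set has 9 genes of the mevalonate pathway, counting the acetyl-CoA steps before it and the branch to geranylgeranyl diphosphate, and 3 genes of the steps that lead to lanosterol. Another 9 genes act between lanosterol and cholesterol, and 6 take part in regulation and sterol transport. All 27 had reads in each of the 49 libraries, from 310 recovered reads for Lbr in its lowest library to 28047 for Hmgcs1 in its highest, and all 27 passed the low-read filter in each comparison.

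RNA was sequenced from the frontal cortex of mice fed a high fat diet, and every group shared that diet. Mice labelled AKO, for amylin knockout, were fed for 4 months (10 libraries). Conditional human amylin transgenic mice were fed for 4 months and injected with tamoxifen (10 libraries) or with vehicle (10 libraries), and their brains were taken 2 months after the injection. Wild-type (WT) mice were fed for 4 months (10 libraries) or for 2 months (9 libraries). The labels give neither the strain, sex or age of the mice nor the promoter and the recombinase driver of the transgene. Each comparison was tested over all genes with limma on the deposited log2(normalised reads + 1) values, called log2 levels below, and a gene passed at a Benjamini-Hochberg adjusted p under 0.05. Differences are in log2 units with their standard error (SE).

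Depth ran from 29.17 M to 75.65 M recovered reads per library. Iapp, the gene of amylin, had 36 to 116 reads in each of the 10 libraries labelled AKO, against 0 reads in all 10 WT libraries at 4 months. Reads of the gene were thus present in the group labelled as its knockout. With 0 reads in WT, these counts cannot show a loss of the gene, and whether the label is right was not tested. The group therefore keeps its label as its name, and its directions are those of the libraries as labelled. Vehicle replicates 1 and 3 and tamoxifen replicate 9 stood apart from their groups over the 12291 genes at a log2 level of 7 or more. Over these genes, their deviations from the group medians had SDs of 0.432, 0.601 and 0.472, against at most 0.289 in any other library. Marker lists are given as log2(summed normalised reads + 1) over the genes of a list, called the marker sum below. The marker sum of 7 olfactory bulb and mucosa markers was 15.26, 15.83 and 14.45 in the libraries that stood apart. It was at most 14.45 in the libraries labelled AKO, 14.04 in 4-month WT libraries and 13.025 in 2-month WT libraries. That of 10 excitatory neuron markers was 17.68, 17.08 and 17.07 in the libraries that stood apart. It was 17.90 or more in every library of the AKO-labelled and WT groups. Results that rest on these libraries are given with and without them. No gene of the 11 marker lists was at 0 throughout a group.

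Cholesterol hardly crosses the blood-brain barrier, so the brain makes its own, mainly in glia and above all for myelin. Acetyl-CoA is built into mevalonate and then into isoprenoid units, which are joined to squalene, closed to the ring system of lanosterol and trimmed to cholesterol. The gene Srebf2 encodes SREBP2, a membrane-bound transcription factor that switches on nearly every enzyme of this route. When sterols are low, the escort protein SCAP carries SREBP2 to the Golgi, where it is cut and released. When sterols are high, the proteins of Insig1 and Insig2 hold SCAP in the endoplasmic reticulum. Insig1 is itself switched on by SREBP2, and Srebf1 encodes the related SREBP1, which mainly serves fatty acid synthesis.

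Per exon length, the level of Hmgcs1 was the highest of the 27, with a median of 74.0 RPKM over the 49 libraries and a range of 48.5 to 83.9. Hmgcs1 encodes the synthase that makes HMG-CoA, the precursor of mevalonate. Srebf2 followed with a median of 33.8 RPKM, then Insig1 with 26.2 and Fdft1, the squalene synthase gene, with 25.04. The lowest medians were those of Lss, the lanosterol synthase gene (3.44 RPKM), and of Tm7sf2 and Lbr, which encode sterol reductases of the same step (3.33 and 2.32 RPKM). The ranges of these last 3 genes overlapped one another. RPKM was computed here from the recovered reads and the exon length in the GENCODE M21 annotation. Several of the genes overlap a neighbour on the opposite strand, such as Acss2 with Gss over 395 bases, Lss with 4930483K19Rik over 381 bases and Scap with 5830462I19Rik over 985 bases. No source used here says whether reads were counted by strand, so reads from such stretches are uncertain.

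**Figure D1:**
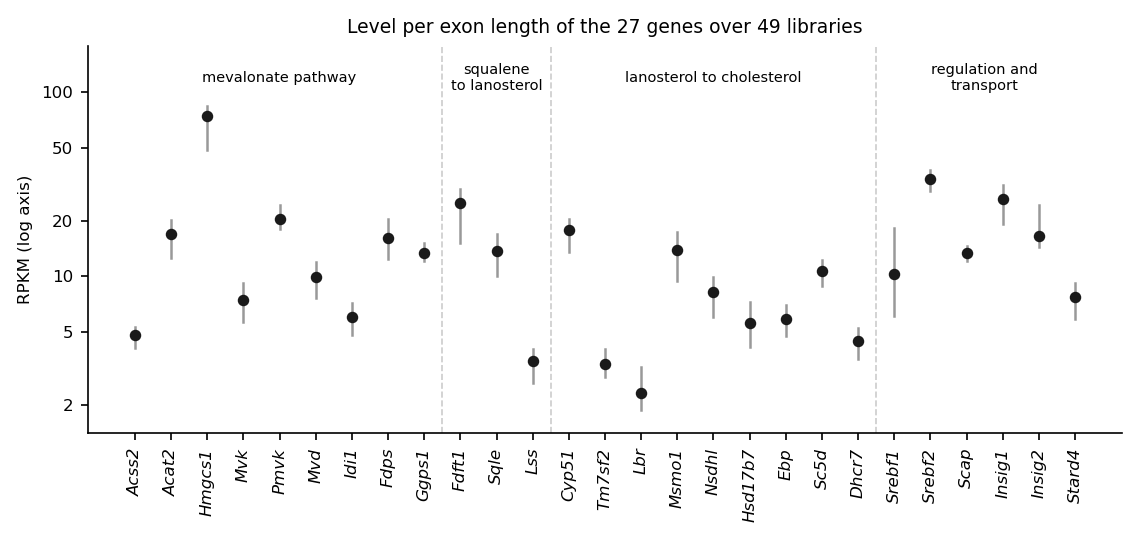
Level of each of the 27 genes in RPKM on a log axis, in pathway order, with the median over 49 libraries as a point and the lowest and highest library as the ends of the line. Hmgcs1 had the highest median, 74.0 RPKM, and Lbr the lowest, 2.32 RPKM.

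SREBP2 binds a sterol regulatory element beside the factor NF-Y, which binds CCAAT. Promoter windows of 300 bases, from 250 bases before a gene's start to 50 bases after it, were available from RefSeq (GRCm38.p6) for 23 of the 27 genes. They were searched on both strands for the letters TCACNCCAC, a form of the sterol element, and for CCAAT, and no match of one overlapped a match of the other. The sterol letters were in 1 of the 23 genes, Hmgcs1, and in 1.44% of all 27025 genes with a window. CCAAT was in 21 of the 23 genes, against 41.1% of all genes. A match describes the letters only. The 4 windows printed here are those of Hmgcs1, the single member with the sterol letters, and of Msmo1, Insig1 and Acat2, whose levels differed between groups as described below. Capitals mark the sterol letters and CCAAT, or their reverse complements. In Hmgcs1 the sterol letters began 137 bases before the start. Msmo1 had CCAAT 160, 96 and 55 bases before its start, and the window of Acat2 had neither motif.
Hmgcs1 (chr13:119690101-119690400, plus strand): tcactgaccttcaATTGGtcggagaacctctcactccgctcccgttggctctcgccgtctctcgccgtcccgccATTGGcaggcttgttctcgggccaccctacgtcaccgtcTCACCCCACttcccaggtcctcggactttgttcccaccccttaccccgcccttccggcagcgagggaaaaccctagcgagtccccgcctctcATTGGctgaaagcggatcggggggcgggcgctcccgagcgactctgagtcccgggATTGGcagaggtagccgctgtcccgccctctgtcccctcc
Msmo1 (chr8:64733529-64733828, minus strand): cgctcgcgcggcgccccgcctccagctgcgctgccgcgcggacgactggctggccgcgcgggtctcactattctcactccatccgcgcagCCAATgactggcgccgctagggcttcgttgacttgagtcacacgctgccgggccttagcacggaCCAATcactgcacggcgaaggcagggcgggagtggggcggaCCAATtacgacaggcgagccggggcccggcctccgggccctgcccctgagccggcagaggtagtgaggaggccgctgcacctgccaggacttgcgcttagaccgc
Insig1 (chr5:28071162-28071461, plus strand): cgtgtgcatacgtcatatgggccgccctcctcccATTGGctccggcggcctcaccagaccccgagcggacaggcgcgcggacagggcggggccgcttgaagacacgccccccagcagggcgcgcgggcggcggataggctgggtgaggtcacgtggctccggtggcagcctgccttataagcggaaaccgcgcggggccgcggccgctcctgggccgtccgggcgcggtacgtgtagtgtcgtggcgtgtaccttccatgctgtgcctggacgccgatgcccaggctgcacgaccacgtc
Acat2 (chr17:12960676-12960975, minus strand): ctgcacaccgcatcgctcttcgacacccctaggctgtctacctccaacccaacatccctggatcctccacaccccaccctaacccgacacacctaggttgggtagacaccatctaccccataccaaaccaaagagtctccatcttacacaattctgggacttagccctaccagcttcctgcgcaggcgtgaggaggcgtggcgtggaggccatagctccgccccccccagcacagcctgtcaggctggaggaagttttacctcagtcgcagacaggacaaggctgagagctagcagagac

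Differences between groups were small for every gene of the set. The group means of a gene spanned 0.0552 to 0.325 log2 units, and for 24 of the 27 genes that span was more than 1 pooled SD of the libraries. The libraries labelled AKO had the highest mean for 18 genes. The lowest mean was in WT at 2 months for 11 genes, in the tamoxifen group for 7 and in the vehicle group for 6. In none of the 6 comparisons were the libraries of the groups apart without overlap for any of the 27 genes. Neither this count nor that of spans over 1 pooled SD was taken over all genes. Whether the 27 genes differ from the rest in these respects is therefore not known.

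In the libraries labelled AKO against WT at 4 months, Acat2 rose and Acss2 fell, and these were the 2 genes of the 27 that passed. Over all 15185 genes tested, 0.790% passed (120 genes, and 62 to 206 with each library left out). Of the 27 genes, 23 had a higher mean in the libraries labelled AKO. The median difference over the 27 was 0.09, against 52.3% of all genes and a median of 0.01. An unadjusted p under 0.05 was reached by 12 of the 27 genes (44.4%) and by 13.98% of all genes. Means were higher for 24 genes after scaling by library total, and for 25 and 18 genes when the WT group was restricted to title numbers 11 to 15 or 21 to 25. In these and the other alternative fits below, the share of all genes with higher means was not taken. Immediate early genes moved alongside: 9 of 10 fell, with marker sums of 13.68 to 14.59 in the libraries labelled AKO, against 14.85 to 15.82 in 4-month WT libraries. Of 16 markers of myelinating oligodendrocytes, all 16 had lower means (median difference -0.18) and 2 fell. Their marker sums were 17.16 to 17.66 in the libraries labelled AKO, against 17.48 to 17.78 in WT libraries. All 9 striatal projection neuron markers had higher means (median difference 0.41), and none passed. The part of these marker lists in the result was not tested. In bulk tissue, fewer cells of a type and less RNA per cell cannot be told apart.

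In the transgenic mice, with either injection, the genes that passed against WT at 4 months were drawn from Acss2, Lss, Msmo1 and Scap. In the tamoxifen group against WT, Lss and Scap rose and Msmo1 and Acss2 fell, 4 of 27, where 13.1% of all genes passed. In the vehicle group against WT, Lss rose and Acss2 fell, 2 of 27, where 6.20% of all genes passed (938 genes, and 651 to 1494 with each library left out). Means were higher for 8 of the 27 genes (29.6%) in each of these comparisons, with median differences of -0.04 and -0.03. Over all genes, 49.05% had higher means in the tamoxifen comparison and 49.93% in the vehicle comparison. These comparisons use the same WT libraries and are not independent. Without the libraries that stood apart, 5 of the 27 genes passed in each comparison, namely Acss2, Insig2, Lss, Msmo1 and Scap. In those fits 20.8% of all genes passed in the tamoxifen comparison and 18.1% in the vehicle comparison, and 11 and 13 of the 27 had higher means. Myelinating oligodendrocyte markers moved alongside in both groups: 15 of 16 fell in the tamoxifen group and 16 of 16 in the vehicle group. Their marker sums were 16.60 to 17.60 in tamoxifen libraries, 16.52 to 17.67 in vehicle libraries and 17.48 to 17.78 in WT libraries. All 9 striatal projection neuron markers and all 10 immediate early genes had lower means in both groups, and none passed. Median differences of these lists were -0.84 and -0.41 in the tamoxifen group, and -0.79 and -0.52 in the vehicle group. The part of these marker lists in the result was not tested.

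Tamoxifen against vehicle, which compares the injections within the transgenic line, gave no call in the set. By limma on the log2 levels, 0 of the 27 genes and 0 of all 15270 genes passed (0%), limma-voom on the recovered reads also called 0, and 0 of the 27 genes had an unadjusted p under 0.05, against 503 of all genes. The smallest p in the set were those of Pmvk, Mvk, Idi1, Srebf2 and Acat2, none of which passed (limma adjusted p = 0.9998 for each). The 95% confidence intervals of the differences bound what these libraries allow: -0.14 to 0.01 for Pmvk and -0.17 to 0.02 for Srebf2, but -0.25 to 0.26 for Srebf1, -0.16 to 0.29 for Fdft1, -0.26 to 0.16 for Hsd17b7 and -0.18 to 0.21 for Hmgcs1. A p that misses the threshold does not show that the groups were alike. Means were higher in the tamoxifen group for 16 of the 27 genes (59.3%), against 49.41% of all genes. They were higher for 7 once the libraries that stood apart were left out.

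In the libraries labelled AKO against the vehicle transgenic group, Msmo1, Insig1, Acat2 and Cyp51 rose. These 4 of 27 stood against 6.72% of all genes. Means were higher in the libraries labelled AKO for 21 genes (77.8%), against 51.97% of all genes. The median difference was 0.12, against 0.01 over all genes. An unadjusted p under 0.05 was reached by 14 genes (51.9%) and by 23.2% of all genes. Without the vehicle libraries that stood apart, 9 of the 27 genes passed, where 17.4% of all genes passed. Myelinating oligodendrocyte markers moved alongside: all 16 had higher means in the libraries labelled AKO and 9 of 16 rose. Their marker sums were 17.16 to 17.66, against 16.52 to 17.67 in vehicle libraries. All 9 striatal projection neuron markers had higher means (median difference 1.34) and 1 rose. Marker sums of that list were 14.75 to 16.49, against 13.78 to 16.07 in vehicle libraries. All 10 immediate early genes had lower means (median difference -0.55) and 1 fell. The part of these marker lists was not tested. This comparison shares its AKO-labelled libraries with the comparison against WT.

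Between WT at 4 months and WT at 2 months of diet, Scap fell, the 1 gene of 27 that passed, where 8.77% of all genes passed (1330 genes, and 772 to 2846 with each library left out). Age and time on the diet cannot be told apart here. Means were higher at 4 months for 18 genes (66.7%), against 50.89% of all genes, and for 22 after scaling by library total. The share of all genes after that scaling was not taken. Among cell type markers, 7 of 12 microglial and 6 of 14 astrocyte markers rose. Their marker sums were 14.41 to 14.59 and 17.82 to 17.997 at 4 months, against 14.28 to 14.55 and 17.75 to 17.89 at 2 months. All 16 myelinating oligodendrocyte markers had higher means at 4 months, and 1 of 16 rose (marker sums of 17.48 to 17.78, against 16.65 to 17.77). Of 10 excitatory neuron markers, 9 had lower means at 4 months and 2 fell. All 9 striatal projection neuron markers had higher means at 4 months (median difference 0.48), and none passed. The part of these cell types was not tested.

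**Figure D2:**
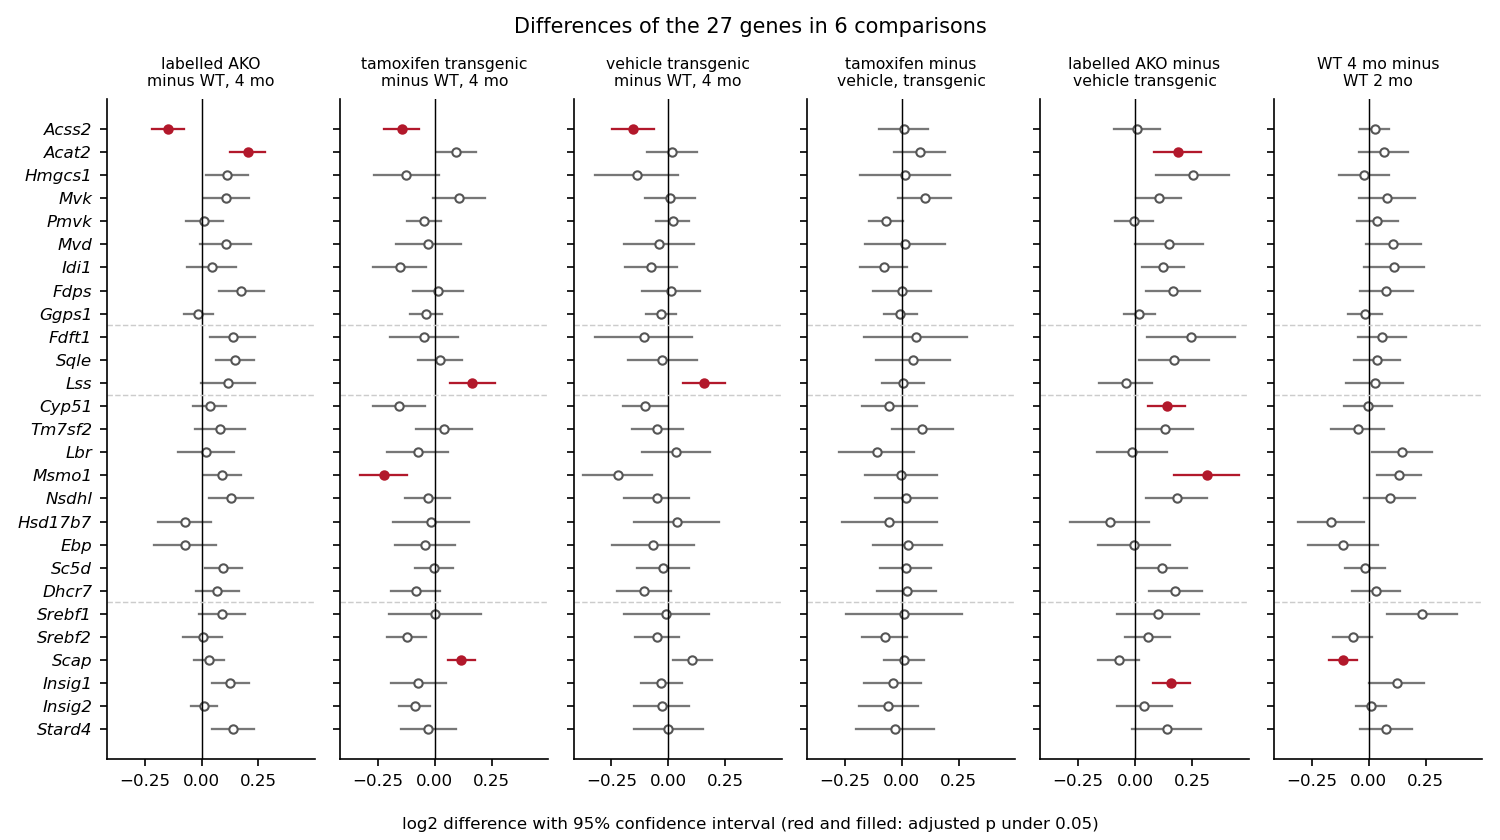
Log2 difference of each of the 27 genes (points) with its 95% confidence interval (lines) in 6 comparisons, first-named group minus the second. Filled red points passed at adjusted p under 0.05, at most 4 of 27 in a comparison, and the points of the libraries labelled AKO minus WT lie right of 0 for 23 genes.

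At the entry of the route, Acat2 rose in the libraries labelled AKO. It encodes the cytosolic thiolase that joins 2 acetyl-CoA molecules. Its log2 level was 10.86 to 11.07 (median 11.02) in the libraries labelled AKO, against 10.67 to 10.94 (median 10.81) in WT at 4 months. All 10 libraries labelled AKO were above the WT median, although the lowest overlapped the WT range. The rise was 0.20 (SE 0.04), 1.15-fold, with a limma adjusted p of 0.00562. It passed in all 20 fits that left out 1 library each (adjusted p up to 0.0150), and with WT libraries 11 to 15 alone. With WT libraries 21 to 25 alone it was 0.16 and did not pass (adjusted p = 0.102). The WT mean was 10.76 ± 0.06 for numbers 11 to 15 and 10.85 ± 0.09 for 21 to 25 (SD, n = 5 each). In vehicle libraries Acat2 was 10.47 to 11.02 (median 10.84), and the difference of the libraries labelled AKO from these was 0.19 (SE 0.05) (adjusted p = 0.029). Vehicle replicates 1 and 3 widened it: the vehicle mean was 10.82 with them and 10.87 without them, against 11.01 in the libraries labelled AKO. Tamoxifen libraries, at 10.73 to 11.04 (median 10.91), were 0.08 above vehicle libraries, which did not pass. That difference ran from 0.04 to 0.10 with each library left out, lowest without vehicle replicate 3, and was 0.03 without the libraries that stood apart. The 2-month WT libraries were lowest, at 10.47 to 10.92 (median 10.78).

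Acss2, which makes acetyl-CoA from acetate in the cytosol and nucleus, was low in all 3 groups of engineered mice relative to WT at 4 months. It was 10.84 to 11.14 (median 10.96) in the libraries labelled AKO, 10.83 to 11.11 (median 10.98) in tamoxifen libraries and 10.78 to 11.13 (median 10.98) in vehicle libraries, against 11.01 to 11.17 (median 11.12) in WT libraries at 4 months. The WT libraries lay close together, and each of the 3 groups overlapped them at its upper end. The differences were -0.15 (SE 0.03) (adjusted p = 0.0381), -0.15 (SE 0.04) (adjusted p = 0.0122) and -0.16 (SE 0.04) (adjusted p = 0.0373), all by limma against the same WT libraries. All 3 calls were lost with WT libraries 11 to 15 alone (adjusted p = 0.0881, 0.0760 and 0.182 in the same order) or 21 to 25 alone (0.199, 0.119 and 0.227). That of the libraries labelled AKO was also lost with all 49 libraries in 1 model (0.104), after scaling by library total (0.0877) and without AKO-labelled replicates 14 and 19 (0.0649). It was lost in 15 of 20 fits without 1 library (adjusted p up to 0.0746), all but those without AKO-labelled replicate 14, 15 or 21 or WT replicate 24 or 25. That of the vehicle group was lost in 12 of 20 (up to 0.0707), all but those without vehicle replicate 1, 3, 5, 10, 11 or 16 or WT replicate 13 or 24. WT libraries at 2 months had 11.03 to 11.22 (median 11.08), and the difference of WT at 4 months from these was 0.03.

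Hmgcs1 had its highest group in the libraries labelled AKO, 13.88 to 13.98 (median 13.95), with an SD of 0.03 over 10 libraries. It was 13.22 to 13.88 (median 13.75) in tamoxifen libraries, 13.12 to 13.90 (median 13.82) in vehicle libraries and 13.58 to 14.02 (median 13.83) in WT libraries at 4 months. All 10 libraries labelled AKO were above the medians of the vehicle and the WT groups. Neither difference passed: 0.25 (SE 0.08) against vehicle (adjusted p = 0.0537) and 0.11 (SE 0.04) against WT (adjusted p = 0.247). The lowest vehicle and tamoxifen values were those of libraries that stood apart. Without them the difference from vehicle was smaller, 0.14, and passed (adjusted p = 0.0114).

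The kinases and the decarboxylase of mevalonate, Mvk, Pmvk and Mvd, gave no call in any comparison. Mvk was 9.70 to 10.002 (median 9.75) in tamoxifen libraries, against 9.55 to 9.93 (median 9.72) in vehicle libraries. Pmvk was 10.44 to 10.68 (median 10.52) in tamoxifen libraries, against 10.50 to 10.71 (median 10.58) in vehicle libraries, and 9 of 10 tamoxifen libraries were below the vehicle median. Idi1, the isomerase of the isoprenoid units, was 9.49 to 9.85 (median 9.74) in tamoxifen libraries, 9.61 to 9.91 (median 9.79) in vehicle libraries and 9.53 to 10.04 (median 9.87) in WT libraries at 4 months. All 10 tamoxifen libraries were below the WT median of Idi1, by -0.15 (SE 0.06) in the mean, which did not pass (adjusted p = 0.0694).

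Fdps joins the isoprenoid units to farnesyl diphosphate. It was 11.48 to 11.82 (median 11.61) in the libraries labelled AKO, against 11.14 to 11.56 (median 11.47) in WT libraries at 4 months. All 10 libraries labelled AKO were above the WT median, and the difference of 0.18 (SE 0.05) did not pass (adjusted p = 0.0833). Fdps overlaps the predicted gene Gm43738 on the same strand over 1124 bases, so its reads are uncertain. Ggps1, which opens the branch to protein prenylation, had the narrowest span of group means of the 27, 0.06.

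Of the genes that lead to lanosterol, Lss passed in the transgenic mice. Lss was 10.52 to 10.86 (median 10.64) in tamoxifen libraries and 10.54 to 10.79 (median 10.69) in vehicle libraries, against 10.35 to 10.72 (median 10.47) in WT libraries at 4 months. In each transgenic group, 10 of 10 libraries were above the WT median, while the WT range reached into theirs. The rises were 0.16 (SE 0.05) in the tamoxifen group (1.12-fold, adjusted p = 0.0268) and 0.16 (SE 0.04) in the vehicle group (1.12-fold, adjusted p = 0.0358). WT libraries 11 to 15 had a mean of 10.57 ± 0.10 and WT libraries 21 to 25 a mean of 10.44 ± 0.05 (SD, n = 5 each). Against 11 to 15 alone the rises were 0.10 and 0.09 and did not pass (adjusted p = 0.370 and 0.463), which ends both calls. The vehicle call was also lost after scaling by library total (0.0572), with all 49 libraries in 1 model (0.0736) and in 14 of 20 fits without 1 library (adjusted p up to 0.0690), all but those without vehicle replicate 3, 10 or 11 or WT replicate 12, 13 or 15. In the libraries labelled AKO, Lss was 10.27 to 10.83 (median 10.65) and its difference from WT was 0.12, which did not pass.

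Sqle encodes squalene epoxidase, a rate-limiting enzyme of the later route. It was 11.57 to 11.95 (median 11.80) in the libraries labelled AKO, against 11.46 to 11.79 (median 11.65) in WT libraries at 4 months. A total of 9 of the 10 libraries labelled AKO were above the WT median. The difference of 0.15 (SE 0.04) did not pass (adjusted p = 0.0916), and it passed without AKO-labelled replicate 19 (adjusted p = 0.0243). Fdft1, the gene of squalene synthase, was above the WT median in 10 of 10 libraries labelled AKO, with a difference of 0.14 (SE 0.05) that did not pass (adjusted p = 0.193). It overlaps Ctsb on the opposite strand over 774 bases.

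Between lanosterol and cholesterol, Msmo1 had the widest span of group means, 0.32. Its product, methylsterol monooxygenase, takes part in the removal of the extra methyl groups. Msmo1 was 11.91 to 12.12 (median 12.03) in the libraries labelled AKO, 11.48 to 11.88 (median 11.72) in tamoxifen libraries and 11.19 to 11.92 (median 11.77) in vehicle libraries. Among WT libraries it was 11.77 to 12.07 (median 11.97) after 4 months and 11.56 to 11.92 (median 11.80) after 2 months. The libraries labelled AKO were thus the highest group and the transgenic groups the lowest. Msmo1 fell by 0.22 (SE 0.05) in the tamoxifen group against WT at 4 months (0.856-fold, adjusted p = 0.00519), with 10 of 10 libraries below the WT median. In the vehicle group the difference was -0.22 (SE 0.07) and did not pass (adjusted p = 0.0737), although 10 of 10 libraries were below the WT median. It passed without vehicle replicate 3 (adjusted p = 0.0439), and without replicates 1 and 3 it was -0.13 and passed (adjusted p = 0.0405). The tamoxifen call was lost with WT libraries 11 to 15 alone, where the difference was -0.20 (adjusted p = 0.0806). The libraries labelled AKO were higher than the vehicle group by 0.31 (SE 0.07), 1.24-fold (adjusted p = 0.0123). Vehicle replicates 1 and 3 widened that difference: the vehicle mean was 11.71 with them and 11.81 without them, against 12.03 in the libraries labelled AKO. Against WT at 4 months the difference of the libraries labelled AKO was 0.09 and did not pass. WT at 4 months was 0.13 (SE 0.05) above WT at 2 months, which did not pass (adjusted p = 0.0699).

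Cyp51, the lanosterol demethylase gene, was 11.71 to 11.87 (median 11.77) in the libraries labelled AKO, 11.36 to 11.74 (median 11.61) in tamoxifen libraries, 11.43 to 11.75 (median 11.65) in vehicle libraries and 11.60 to 11.89 (median 11.74) in WT libraries at 4 months. Cyp51 overlaps Akap9 on the opposite strand over 166 bases. It rose in the libraries labelled AKO against the vehicle group by 0.14 (SE 0.04) (1.101-fold, adjusted p = 0.0396), a call lost without AKO-labelled replicates 14 and 19 (adjusted p = 0.0622), with all 49 libraries in 1 model (0.0717) and with no low-read filter (0.0513). Against WT at 4 months, 10 of 10 tamoxifen libraries were below the WT median, and the difference of -0.16 (SE 0.05) did not pass (adjusted p = 0.0605).

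Hsd17b7 and Ebp were the 2 genes whose lowest mean was in the libraries labelled AKO. Hsd17b7 encodes a sterol ketoreductase that works with the product of Msmo1 and Nsdhl, and Ebp a sterol isomerase. Hsd17b7 was 9.96 to 10.44 (median 10.27) in WT libraries at 4 months, against 10.12 to 10.56 (median 10.47) in WT libraries at 2 months, a difference of -0.16 (SE 0.07) that did not pass (adjusted p = 0.13) and passed without 2-month replicate 37 (adjusted p = 0.0376). Lbr, whose protein is both a sterol reductase and an anchor of the nuclear lamina, was 8.71 to 9.14 (median 8.95) at 4 months, against 8.65 to 9.10 (median 8.83) at 2 months, and did not pass (difference 0.15 (SE 0.06), adjusted p = 0.136). Nsdhl, Sc5d, Dhcr7 and Tm7sf2 gave no call, with differences between the libraries labelled AKO and WT at 4 months of 0.07 to 0.13.

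**Figure D3:**
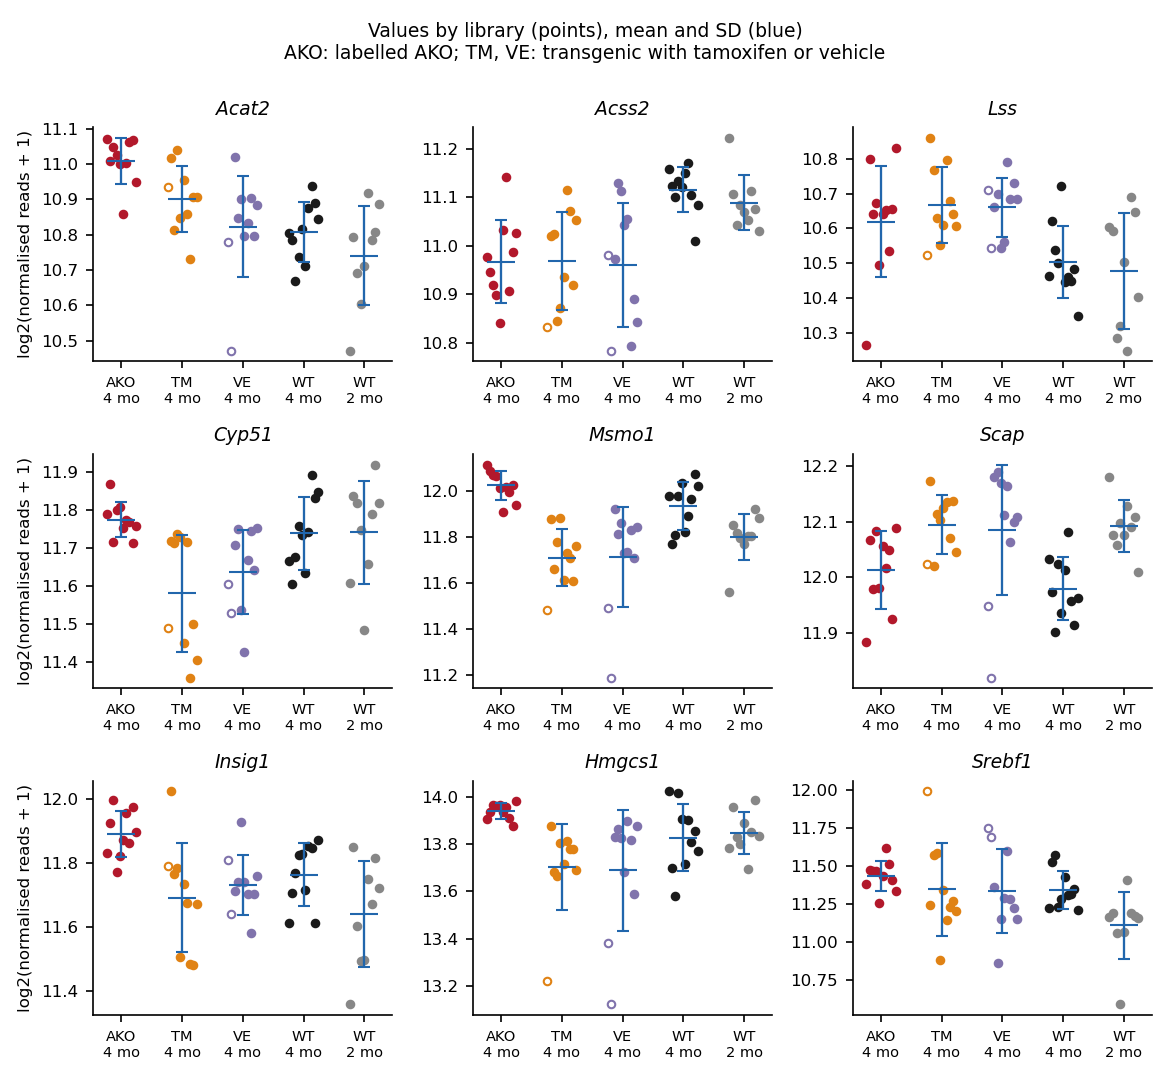
Log2(normalised reads + 1) of 9 of the genes in each library (points), with the group mean and SD in blue. AKO stands for the libraries labelled AKO, TM and VE for transgenic mice with tamoxifen or vehicle, and open points are vehicle replicates 1 and 3 and tamoxifen replicate 9. Acat2 had its highest mean in the libraries labelled AKO and Msmo1 its lowest means in the transgenic groups, with overlapping libraries in each of the 6 comparisons.

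Among the regulators, Scap passed in 2 comparisons and Insig1 in 1, while Srebf1, Srebf2 and Insig2 gave no call. Scap was 12.02 to 12.17 (median 12.11) in tamoxifen libraries and 11.82 to 12.19 (median 12.11) in vehicle libraries, against 11.90 to 12.08 (median 11.97) in WT libraries at 4 months. WT libraries at 2 months had 12.01 to 12.18 (median 12.09). WT at 4 months was thus the lowest of these groups. Scap rose by 0.11 (SE 0.03) in the tamoxifen group against WT at 4 months (1.08-fold, adjusted p = 0.0113), with 10 of 10 libraries above the WT median. The call was lost with WT libraries 11 to 15 alone or 21 to 25 alone (adjusted p = 0.0689 and 0.0815), at differences of 0.12 and 0.11. In the vehicle group the difference was 0.11 (SE 0.04) and did not pass (adjusted p = 0.146). Without vehicle replicates 1 and 3 it was 0.16 and passed (adjusted p = 0.00139), and it also passed without replicate 3 alone (adjusted p = 0.0140). Between WT at 4 and at 2 months, Scap fell by 0.11 (SE 0.03, adjusted p = 0.0246), with 10 of 10 libraries at 4 months below the 2-month median. That call was lost without 2-month replicate 32 (adjusted p = 0.0529), after scaling by library total (adjusted p = 0.0578), and with WT libraries 11 to 15 alone (0.0604) or 21 to 25 alone (0.172).

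Insig1 was 11.77 to 11.996 (median 11.88) in the libraries labelled AKO, 11.48 to 12.02 (median 11.70) in tamoxifen libraries, 11.58 to 11.93 (median 11.73) in vehicle libraries and 11.61 to 11.87 (median 11.80) in WT libraries at 4 months. It rose in the libraries labelled AKO against the vehicle group by 0.16 (SE 0.04) (1.12-fold, adjusted p = 0.0204), with 10 of 10 libraries above the vehicle median. The call was lost without AKO-labelled replicates 14 and 19 (adjusted p = 0.0570) and with all 49 libraries in 1 model (0.0578). Against WT at 4 months the difference was 0.13 (SE 0.04) and did not pass (adjusted p = 0.133). Insig1 in WT libraries at 2 months was 11.36 to 11.85 (median 11.67), the lowest group mean.

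Srebf2 gave no call, with a span of 0.19 between its group means. It was 13.21 to 13.46 (median 13.38) in the libraries labelled AKO, 12.996 to 13.33 (median 13.27) in tamoxifen libraries, 13.09 to 13.53 (median 13.30) in vehicle libraries, 13.16 to 13.48 (median 13.38) in 4-month WT libraries and 13.26 to 13.55 (median 13.45) in 2-month WT libraries. In the tamoxifen group 10 of 10 libraries were below the WT median at 4 months, and the difference of -0.12 (SE 0.04) did not pass (adjusted p = 0.0533). It did pass after scaling by library total (-0.12, adjusted p = 0.0178) and with a filter at a mean of 50 normalised reads (adjusted p = 0.0492). In the libraries labelled AKO the difference of Srebf2 from WT at 4 months was 0.00 (SE 0.04), with a 95% confidence interval of -0.08 to 0.09, and 7 of 10 libraries were above the WT median.

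Srebf1 was 11.21 to 11.57 (median 11.31) in WT libraries at 4 months, against 10.59 to 11.41 (median 11.16) in WT libraries at 2 months. All 10 libraries at 4 months were above the 2-month median, and the difference of 0.23 (SE 0.07) did not pass (adjusted p = 0.0523). It passed without WT replicate 11 of the 4-month group (adjusted p = 0.0473) or 2-month replicate 37 (adjusted p = 0.0124), and with a filter at a mean of 50 normalised reads (adjusted p = 0.0490). In the libraries labelled AKO Srebf1 was 11.26 to 11.62 (median 11.45), in tamoxifen libraries 10.88 to 11.99 (median 11.25) and in vehicle libraries 10.86 to 11.75 (median 11.29). The highest tamoxifen and vehicle values were those of tamoxifen replicate 9 and vehicle replicate 1, which stood apart.

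Insig2, which insulin represses in the liver, was 11.23 to 11.38 (median 11.31) in the libraries labelled AKO, 11.07 to 11.36 (median 11.21) in tamoxifen libraries, 11.12 to 11.72 (median 11.21) in vehicle libraries and 11.24 to 11.37 (median 11.29) in WT libraries at 4 months. Its highest value in the series, 11.72, was that of vehicle replicate 3. With the libraries that stood apart left out, Insig2 passed in the tamoxifen and in the vehicle group against WT. Stard4, which carries sterol between membranes, gave no call, with a difference of 0.14 (SE 0.05) between the libraries labelled AKO and WT (adjusted p = 0.165).

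Whether the effect in the libraries labelled AKO differed from that of tamoxifen was tested as the difference between the 2 effects, in 1 model of the 4 groups at 4 months. None of the 27 genes passed (0 by limma on the log2 levels and 0 by limma-voom), where 0.0383% of all genes passed, and 3 of the 27 had an unadjusted p under 0.05, namely Acss2, Insig1 and Fdps. The differences between effects were -0.16 (SE 0.06) for Acss2, 0.17 (SE 0.07) for Insig1 and 0.17 (SE 0.08) for Fdps, with limma adjusted p of 0.753, 0.821 and 0.859. Acat2 and Idi1 came next, at 0.12 each, and did not pass.

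The median SD over the 27 genes was 0.0854 in the libraries labelled AKO, 0.123 in tamoxifen libraries, 0.150 in vehicle libraries, 0.101 in 4-month WT libraries and 0.130 in 2-month WT libraries. Over 12291 genes at a log2 level of 7 or more, the same medians were 0.116, 0.140, 0.162, 0.118 and 0.130. Without the libraries that stood apart, the tamoxifen and vehicle medians over the 27 genes were 0.102 and 0.0975, and those over all genes 0.119 and 0.110. Vehicle replicate 3 had the lowest value of its group for 18 of the 27 genes, and tamoxifen replicate 9 for 13. WT replicate 13 at 4 months was lowest for 10 genes and 2-month replicate 32 for 8. These counts were not taken over all genes. Vehicle replicate 3 and tamoxifen replicate 9 stood apart over all genes at a log2 level of 7 or more. Whether the 27 genes differ from the rest in this respect is therefore not known. In tamoxifen replicate 9, Hmgcs1 was the lowest of its group at 13.22 and Srebf1 the highest at 11.99.

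**Figure D4:**
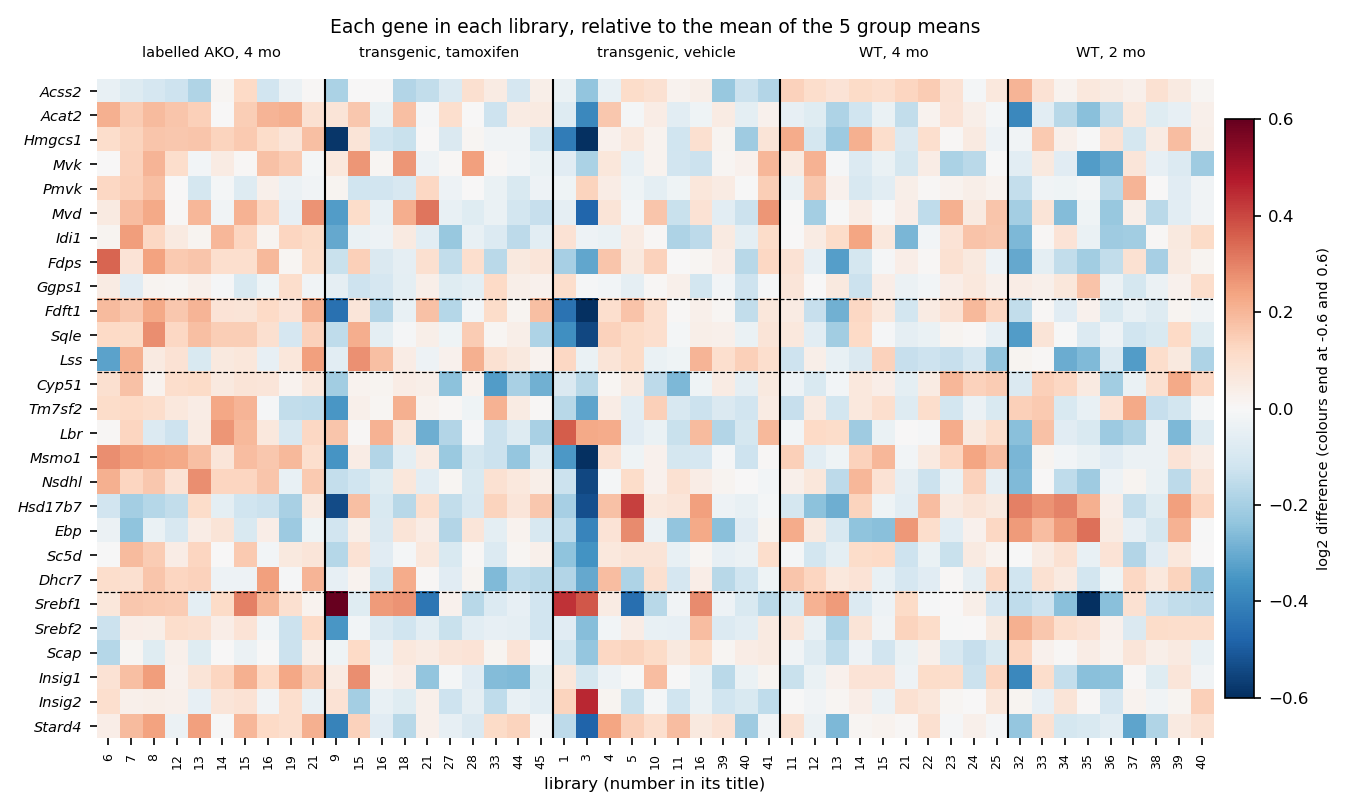
Log2 difference of each gene (rows, in pathway order) in each library (columns, by group and title number) from the mean of the 5 group means, with colours ending at -0.6 and 0.6. Vehicle replicate 3 and tamoxifen replicate 9 show low synthesis genes, with 18 and 13 of the 27 genes lowest in their group, and the libraries labelled AKO are mostly above the mean.

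Deviations from the group means were compared between genes over the 49 libraries. The median Pearson r over the 351 pairs of the 27 genes was 0.17, against 0.00 for all genes, and 16.5% of pairs reached 0.5, against 6.5% of pairs of all genes. The median r was 0.27 within the genes from lanosterol to cholesterol, 0.13 within the mevalonate genes, 0.16 within those leading to lanosterol and -0.04 within the genes of regulation and transport. The mean r with the other members was below 0 for 5 of the 27 genes. These were Insig2 (-0.29), Srebf1 (-0.22), Ggps1 (-0.11), Pmvk (-0.06) and Lbr (-0.04). Without the libraries that stood apart it was below 0 for 4 genes: Insig2 (-0.0004), Srebf1 (-0.07), Ggps1 (-0.08) and Acss2 (-0.01). Pmvk and Lbr then had 0.01 and 0.10. The median r over the 351 pairs was then 0.11 and the share 7.41%, against 2.95% of pairs of all genes. Within the parts of the set, in the order above, the median was then 0.11, 0.07, 0.10 and -0.02. These are descriptions with no test, since the pairs share libraries. The highest r was that of Fdft1 with Msmo1, 0.88 (Spearman's rho 0.77), and it was 0.69 without the libraries that stood apart. Hmgcs1 with Sqle had 0.83 (rho 0.84), and 0.71 without them. The lowest r was that of Fdft1 with Srebf1, -0.70 (rho -0.65), and -0.55 without them. Fdft1, Msmo1, Hmgcs1 and Sqle are all genes of enzymes of the route that SREBP2 controls. The part of that control, or of the tissue content of the libraries, in these r was not tested.

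Around the set, 5 lists of other genes of the pathway were counted: fatty acid synthesis under SREBP1 (13 genes), SREBP cleavage and sterol-sensing degradation, the isoprenoid branch, sterol esterification with oxidation and LXR targets, and acetyl-CoA supply with other SREBP2 targets (11 genes each). Against WT at 4 months, the libraries labelled AKO had 0 of 13, 0 of 11, 0 of 11, 1 of 11 and 0 of 11 past the test in that order. That is 1 of 57 (1.75%), beside 0.790% of all genes. The 1 was Ch25h, which makes a hydroxylated cholesterol and fell by 1.72 (SE 0.35, adjusted p = 0.0167), with means of 2.92 in the libraries labelled AKO, against 4.65 in 4-month WT libraries. Ch25h had few reads, so its difference is on a scale that understates change. Rnf145, a ubiquitin ligase of the endoplasmic reticulum that takes part in sterol-sensing degradation, rose by 0.29 (SE 0.04) in the tamoxifen group and by 0.25 (SE 0.04) in the vehicle group against WT at 4 months (adjusted p = 0.000209 and 0.000682). In WT at 4 months it fell by 0.16 (SE 0.03) against WT at 2 months (adjusted p = 0.00754), so its 4-month WT mean of 12.09 was the lowest of these groups, as for Scap.

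The tamoxifen group had 4 calls of 57 (7.02%), beside 13.1% of all genes. Fasn, the fatty acid synthase gene, also rose (0.13), while Faf2, which takes part in the degradation of the Insig proteins, and Rabggtb, a subunit of a protein prenylation enzyme, fell by 0.11 and 0.16. The vehicle group had 1 call of 57 (1.75%), Rnf145, beside 6.20% of all genes. The libraries labelled AKO had 5 calls of 56 tested against the vehicle group (8.93%), beside 6.72% of all genes. Scd1 rose by 0.28 and Fads1 by 0.12, genes of fatty acid desaturases, Nus1, of dolichol synthesis, by 0.14 and Fabp5, a fatty acid binding protein gene, by 0.16, and Sec24c, a coat protein gene of the vesicles that carry SCAP, fell by 0.13. Between WT at 4 and at 2 months, 5 of 57 passed (8.77%), the same share as over all genes. Abca1, the cholesterol exporter gene induced through LXR, rose by 0.47 (SE 0.10, adjusted p = 0.0117). Mylip, another LXR-induced gene, fell by 0.34 (adjusted p = 0.00662), and Scd2, a fatty acid desaturase gene, rose by 0.11. Tamoxifen against vehicle gave 0 calls in the 5 lists.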

How the data were processed

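The members and the gene lists were chosen with earlier results of these data known, so no count over them is independent evidence. The library kit was Illumina TruSeq Stranded mRNA, per the labels' protocols. The aligner, counter and build were not given in the sources used here. The authors deposited log2 values for 24495 genes in 50 columns. A value is the log2 of normalised reads (reads over a size factor of the library) plus 1. Whole reads were recovered from 99.92 to 100.00% of low values per library (up to 200 reads, within 0.1 of a whole number). A single column (1) matched no sample and was not used, and 7 genes without whole reads were left out. On this scale, fold changes of genes with few reads are understated.

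The low-read filter asked for 15 reads over a comparison and for the CPM that 10 reads have in its median library, met by at least the number of libraries in its smaller group. The test was limma 3.58.1 (R 4.3.3), with trend and robust shrinkage of the variance, fitted to the groups compared alone, two-sided, with Benjamini-Hochberg adjustment over all genes tested. It was checked on simulated reads with known changes. The title numbers are not explained in the labels, and p-values therefore reflect only how much these libraries vary, which may be technical. A gene of the pathway lists is not reported here. No libraries were duplicates: the closest pair of a group differed by a chi-square of 6.845 per gene. Values are given for genes past the test in any comparison, for those with the smallest p up to 5 per comparison, and for the regulators. Alternatives were limma-voom on recovered reads, another pseudocount (5), other filters and scaling, all 49 libraries in 1 model, parts of the WT group, and each library left out. Leaving out the libraries that stood apart was chosen after seeing the data. Levels in RPKM, promoter windows and overlaps used GENCODE M21 and RefSeq (GRCm38.p6).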

Additional observations from a re-analysis of the deposited data

Results flagged for a closer look

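In each group, the highest and the lowest library of each of the 27 genes was compared with its nearest neighbour by Dixon's criterion. Of 135 combinations of a gene and a group, 16 had a library far from the others, where independent normal values give about 1 in 20. The 27 genes share their libraries, and no such count was taken over all genes. An excess in the 27 genes can therefore not be read from this count. Tamoxifen replicate 9 was the lowest of its group for Hmgcs1 (13.22), Tm7sf2 (8.94), Hsd17b7 (9.72) and Srebf2 (12.996). Vehicle replicate 3 was the lowest for Acat2 (10.47) and Nsdhl (9.43) and the highest for Insig2 (11.72). These are 2 of the libraries that stood apart. Their marker sums of olfactory bulb and mucosa were 14.45 in tamoxifen replicate 9 and 15.83 in vehicle replicate 3. The part of that tissue in the flagged values was not tested.

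In the libraries labelled AKO, replicate 19 was the lowest for Sqle (11.57). In WT at 4 months, replicate 13 was the lowest for Fdps (11.14) and Stard4 (10.56), replicate 21 the lowest for Idi1 (9.53) and replicate 12 the highest for Pmvk (10.72). In WT at 2 months, replicate 32 was the highest for Acss2 (11.22) and the lowest for Msmo1 (11.56), replicate 37 the highest for Pmvk (10.76) and replicate 35 the lowest for Srebf1 (10.59).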

How the results depend on the processing

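Among the genes recomputed one by one (those past the test or with the smallest p in a comparison), none reversed its direction under any alternative run. Means of other genes did turn: in tamoxifen against vehicle, 16 of the 27 were higher, and 7 without the libraries that stood apart. The number of the 27 genes past the test moved by over 1.5 times as follows, and the cause was not tested. Percentages in brackets are the shares of all genes that passed in the same fit. For the libraries labelled AKO against WT at 4 months (2 genes, 0.790%), it was 1 with all 49 libraries in 1 model (0.329%). It was 1 with WT libraries 11 to 15 alone (0.893%), 0 with WT libraries 21 to 25 alone (0.999%), and 1 to 2 with each library left out. For the tamoxifen group against WT (4 genes, 13.1%), it was 7 with all 49 libraries (12.9%) and 0 with WT libraries 11 to 15 alone (4.36%). For the vehicle group against WT (2 genes, 6.20%), it was 0 with WT libraries 11 to 15 alone (1.06%) and 1 with 21 to 25 alone (2.55%). It was 5 without the libraries that stood apart (18.1%), and 0 to 4 with each library left out. For the libraries labelled AKO against vehicle (4 genes, 6.72%), it was 8 after scaling by library total (6.18%). It was 2 without AKO-labelled replicates 14 and 19 (3.11%), and 9 without the libraries that stood apart (17.4%). For WT at 4 against 2 months (1 gene, 8.77%), it was 2 with a filter at a mean of 50 normalised reads (10.5%). It was 0 with WT libraries 11 to 15 alone (7.5%) or 21 to 25 alone (0.232%), and 0 to 3 with each library left out. Tamoxifen against vehicle stayed at 0 genes under each alternative, as did the difference between the effects. Fits with 5 WT libraries have fewer samples. The count over all genes moved by over 1.5 times without AKO-labelled replicate 6, 8, 13 or 15 or WT replicate 14 or 21 (AKO-labelled against WT), without vehicle replicate 3 (vehicle against WT), and without 4-month replicate 12 or 2-month replicate 32, 33, 34, 35 or 37 (WT at 4 against 2 months).

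Whether the title numbers pair the libraries could not be established. Deviations of same-numbered libraries correlated at -0.29 to 0.138 over 5 shared numbers for AKO-labelled and WT libraries. For tamoxifen and WT libraries they correlated at -0.0717 to 0.0234 over 2 shared numbers. So few shared numbers cannot decide the question. With a replicate block over the shared numbers, 0 of the 27 genes passed in each of these comparisons (12 and 350 of all genes). No paired analysis was possible for the other comparisons because their groups share fewer than 2 numbers.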
